A study of Mus musculus with 38 samples.

Results

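Msi1, Msi2, Hopx, Lrig1, Bmi1, Clu, Mex3a and Prom1 are 8 genes used as markers of intestinal stem cells, most of them of the slowly cycling or injury-activated cells often called reserve stem cells. Their rows were taken by symbol from 3 tables of 21441 genes each, 1 table per tissue. Msi1 and Hopx were chosen by their measured values, a higher FPKM after vitamin D in crypts and villi, so their values in those tissues are given as a description without a test. The other 6 genes were tested in each tissue where they passed the filter on low values, and Msi1 and Hopx were tested in colon.

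The libraries came from wild-type C57BL6/J mice, all of them vitamin D deficient, labelled as pooled males and females and as 10 to 13.3 weeks old, against 12 to 14 weeks in the treatment protocol. The treated mice had received 10 ng/g body weight of 1,25(OH)2D3, the active hormone, into the peritoneum, and the controls 0.1 ml of propylene glycol and ethanol vehicle; tissue was collected 4 h later. Villi and crypts were released from the proximal small intestine with EDTA and separated on a 70 µm filter, and the colon lining was scraped from the muscle. By RNA-seq, villi gave 7 vitamin D and 6 vehicle libraries, crypts 6 of each treatment, and colon 7 and 6. The labels do not name the mouse behind a library, so p-values reflect no more than the scatter among these samples, which may be technical.

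Intestinal stem cells sit at the base of crypts, divide, and feed daughter cells up onto the villi, where they work as absorptive or secretory cells and are shed. Fast-cycling stem cells marked by Lgr5 do most of this in the resting gut, while cells marked by genes such as Hopx, Bmi1, Lrig1, Mex3a or Clu have been linked to slower cycling and to regrowth after injury. The hormone acts through the vitamin D receptor, a transcription factor that binds pairs of short half-sites near its target genes.

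The promoter sequences of Hopx and Mex3a are shown because these genes had the higher vitamin D levels described below and RefSeq entries to read them from. RefSeq promoters on build GRCm38.p6, each running from 250 bases before the start of a transcript to 50 bases after it, were matched for 6 of the 8 genes, with 10 start sites. Msi1 and Clu were not among them. The 2 Hopx starts lie at chr5:77115074-77115373 and chr5:77095218-77095517, both on the minus strand, and the Mex3a start at chr3:88531696-88531995 on the plus strand. Capitals mark a match to one of the vitamin D receptor half-sites named below the sequences. Any other form of the half-site was not searched on its own and stays in lower case.
Hopx start 1: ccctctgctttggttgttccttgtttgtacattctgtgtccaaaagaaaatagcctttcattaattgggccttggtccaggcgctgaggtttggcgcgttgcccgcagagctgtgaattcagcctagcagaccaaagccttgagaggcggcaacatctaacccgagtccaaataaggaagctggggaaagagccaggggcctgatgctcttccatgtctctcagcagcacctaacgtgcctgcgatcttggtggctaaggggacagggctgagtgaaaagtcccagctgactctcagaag
Hopx start 2: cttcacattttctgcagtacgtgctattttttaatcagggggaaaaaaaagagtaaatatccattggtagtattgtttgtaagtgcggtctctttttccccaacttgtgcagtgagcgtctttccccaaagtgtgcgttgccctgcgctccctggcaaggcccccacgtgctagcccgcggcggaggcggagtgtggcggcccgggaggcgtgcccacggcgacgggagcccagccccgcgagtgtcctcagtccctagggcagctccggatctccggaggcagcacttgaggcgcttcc
Mex3a: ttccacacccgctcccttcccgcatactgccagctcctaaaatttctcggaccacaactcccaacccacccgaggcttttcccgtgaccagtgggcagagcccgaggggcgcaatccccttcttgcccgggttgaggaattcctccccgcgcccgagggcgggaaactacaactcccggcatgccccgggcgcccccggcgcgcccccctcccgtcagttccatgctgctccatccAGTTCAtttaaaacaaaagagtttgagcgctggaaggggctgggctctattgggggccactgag
The paired vitamin D response element known as DR3, searched on both strands, was in 0.2557% of all RefSeq promoters of this length and in none of the 10. Of its half-sites, which can overlap a DR3 element, only those named next were searched singly, on both strands. The half-site AGTTCA was found in 13.99% of promoters, and in Mex3a it began 14 bases before the start. The half-site GGTTCA was found in 10.39% of promoters, and among the 10 only in the second Prom1 start. The half-site AGGTCA was found in 16.26% of promoters and in none of the 10. These matches describe the letters of these windows.

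Levels are given in FPKM, fragments scaled by transcript length and library size. Libraries held 13.8 to 17.5 M reads (median 15.8 M), and 24 showed a female and 14 a male pattern of sex-linked genes. Cyp24a1, the enzyme that breaks the hormone down and a standard sign of its action, was at 1898 to 4651 FPKM after vitamin D and 0.0548 to 62.2 FPKM after vehicle in villi. It was at 2516 to 4487 against 0.184 to 7.35 FPKM in crypts, and at 403 to 3275 against 0.114 to 64.7 FPKM in colon. All vitamin D libraries therefore lay above all vehicle libraries for this gene. Fold changes are differences of log2(FPKM + 0.5), which understates the change of low genes, and are given with their standard error from limma. A gene entered the fit with 1 FPKM or more in at least 6 libraries of a tissue and was called at an adjusted p under 0.05. By this rule 5 of the 8 genes were in the fit of villi, 7 in crypts and 7 in colon. In bulk RNA, fewer cells of a type and less RNA per cell cannot be told apart.

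**Figure D1:**
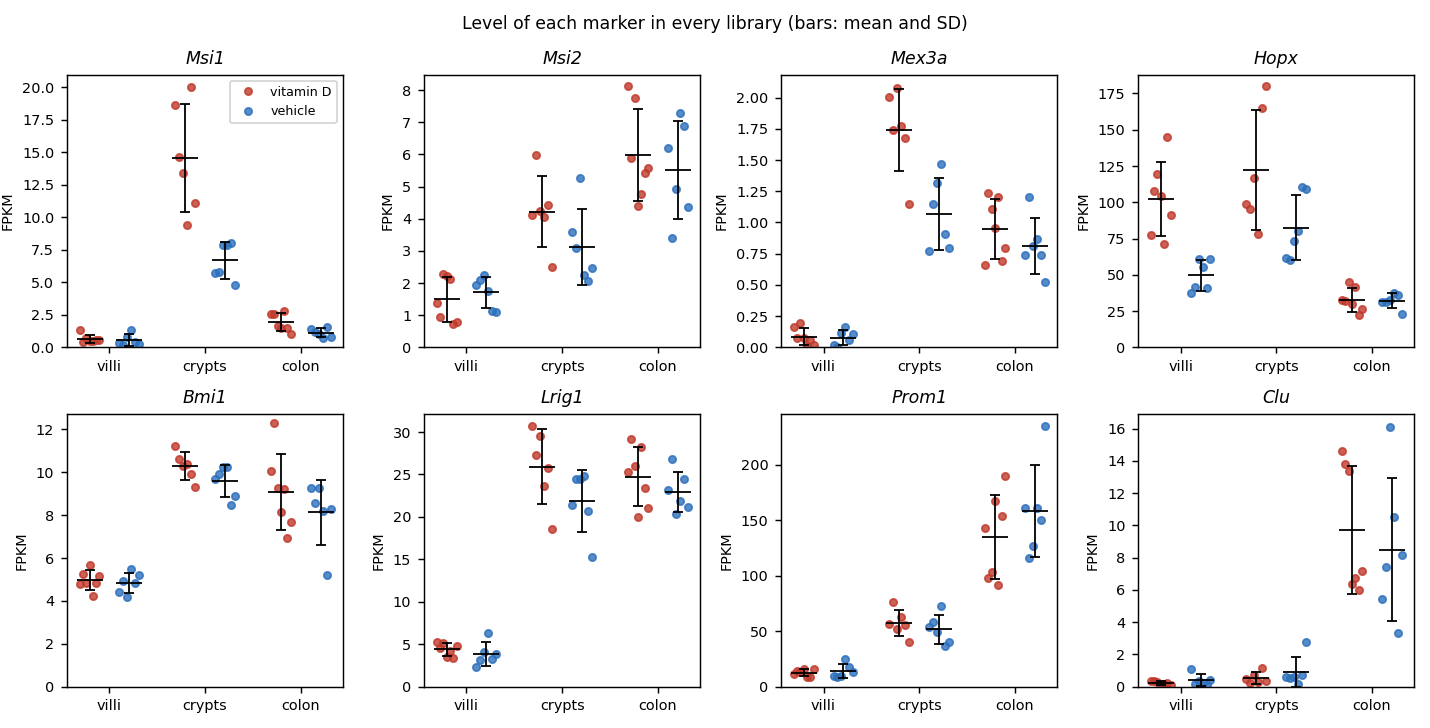
FPKM (vertical axis, linear) of each of the 8 genes in every library of villi, crypts and colon. Red points are vitamin D libraries, blue points vehicle libraries, and bars give the mean and SD. Msi1 in crypts and Hopx in villi show no overlap between treatments.

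Msi1 encodes Musashi-1, an RNA-binding protein that holds back translation of its target messages and marks stem and early progenitor cells of the crypt. In crypts it was at 9.42 to 19.997 FPKM (median 14.0) after vitamin D and 4.79 to 8.06 FPKM (median 6.83) after vehicle. All 6 vitamin D libraries lay above all 6 vehicle libraries, a pattern shown by 1.23% of the 10733 genes tested in crypts; Msi1 was chosen for it. Means were 14.5 ± 4.15 FPKM after vitamin D and 6.69 ± 1.42 FPKM after vehicle (SD, n = 6 each), a log2 fold change of 1.04 ± 0.19. Between libraries of the same replicate number the ratio ran from 1.19 to 3.24, lowest for replicate 4.

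Msi1 was scarce outside crypts. In villi it reached 0.448 to 1.37 FPKM after vitamin D and 0.191 to 1.36 FPKM after vehicle, below the filter, and the groups overlapped. Its villus log2 fold change was 0.22 ± 0.23, given without a test, and 4 of 6 same-numbered pairs were higher after vitamin D. The crypt mean was 21.5 times the villus mean after vitamin D and 12.1 times after vehicle, with no overlap of ranges in either treatment. In the authors' deposited table for vitamin D libraries, crypts minus villi was 3.93 on the log2 scale; 61.9% of genes in that table were called. The FPKM tables of the tissues were normalised apart, which touches every ratio between tissues. The highest villus values, 1.37 FPKM in vitamin D replicate 1 and 1.36 FPKM in vehicle replicate 4, had summed Paneth cell markers, genes of the crypt base, of 1078 and 3362 FPKM. The other villus libraries summed to 151 to 1126 FPKM after vitamin D and 91.4 to 1541 FPKM after vehicle. Their part in the Msi1 values was not tested.

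In colon Msi1 could be tested. It was at 1.06 to 2.83 FPKM (median 1.68) after vitamin D and 0.719 to 1.61 FPKM (median 1.12) after vehicle. Of the 7 vitamin D libraries, 4 exceeded all vehicle ones, and the vitamin D library was the higher in 6 of 6 pairs of equal number. The log2 fold change was 0.58 ± 0.21, with a 95% interval of 0.13 to 1.03, and it did not pass the test (limma adjusted p = 0.390, unadjusted p = 0.0157). Vehicle values lay on both sides of the filter's 1 FPKM and all vitamin D values above it. With the filter at 2 FPKM, Msi1 left the colon fit. In this tissue 0.823% of 11540 genes were called. The authors' deposited table gives 0.81 with an adjusted p of 0.221 for Msi1 in colon, where it called 1.64% of genes. Summed markers of fibroblasts and smooth muscle, all 14 of them measured, ran from 35.3 to 12524 FPKM after vitamin D and 33.7 to 608.7 FPKM after vehicle, and were highest in vitamin D replicates 1 and 2. Without these 2 libraries, a choice made after seeing the data, Msi1 was at 0.43 (limma adjusted p = 0.821).

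Msi2, the close relative of Msi1 with overlapping targets, followed another order of levels. Its means after vitamin D were 5.99 ± 1.42 FPKM in colon (n = 7), 4.22 ± 1.10 in crypts (n = 6) and 1.50 ± 0.702 in villi (n = 7). After vehicle they were 5.51 ± 1.53, 3.12 ± 1.19 and 1.71 ± 0.492 FPKM (n = 6 each). Colon and crypts overlapped, and colon stood clear of villi in both treatments. In crypts Msi2 was at 2.51 to 5.97 FPKM after vitamin D against 2.05 to 5.26 FPKM after vehicle, with a log2 fold change of 0.40 ± 0.21 (95% interval -0.06 to 0.87, limma adjusted p = 0.398). It was -0.20 ± 0.24 in villi and 0.12 ± 0.18 in colon, with limma adjusted p of 0.806 and 0.913.

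Mex3a encodes an RNA-binding ubiquitin ligase that marks a slowly dividing subset of crypt stem cells. In crypts it was at 1.15 to 2.08 FPKM (median 1.76) after vitamin D and 0.775 to 1.47 FPKM (median 1.03) after vehicle. Here 5 of the 6 vitamin D libraries exceeded all vehicle ones, and 6 of 6 same-numbered pairs were higher after vitamin D, by 1.21 to 2.59 times. The log2 fold change of 0.52 ± 0.15 (95% interval 0.19 to 0.85) did not pass the test over all genes (limma adjusted p = 0.131, unadjusted p = 0.00511). Vehicle values lay on both sides of the filter's 1 FPKM and all vitamin D values above it. With the filter at 2 FPKM, Mex3a left the crypt fit. Crypts had 157 called genes, or 1.46%; with the replicate number as a block there were 444, and Mex3a stood at an adjusted p of 0.0670. The call depended on the fit: leaving out vehicle replicate 4, the highest vehicle library for Mex3a at 1.47 FPKM, gave 0.59 with an adjusted p of 0.0324 and 1065 called genes, and the style of the column name as a covariate gave an adjusted p of 0.0489. The authors' deposited table gives Mex3a a log2 fold change of 0.70 with an adjusted p of 0.0229, where 4.28% of genes in that table were called.

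Outside crypts Mex3a was low. In villi its mean was 0.0846 FPKM after vitamin D and 0.0786 FPKM after vehicle, and in colon 0.951 ± 0.240 and 0.815 ± 0.224 FPKM, all below the filter. The crypt mean was 20.5 times the villus mean after vitamin D, and the colon and crypt ranges overlapped. The authors' deposited table for vitamin D libraries gives crypts minus villi as 3.88 on the log2 scale for Mex3a.

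Hopx is a small homeodomain protein without DNA binding of its own, used as a mark of reserve stem cells in crypts and also present in differentiated cells of the villus. In villi it was at 71.4 to 144.7 FPKM (median 104.4) after vitamin D and 37.6 to 61.1 FPKM (median 48.7) after vehicle. All 7 vitamin D libraries lay above all 6 vehicle libraries, which 1.75% of the 9706 genes tested in villi did; Hopx was picked for this difference. Means were 102.4 ± 25.2 and 49.6 ± 10.7 FPKM, a log2 fold change of 1.03 ± 0.17. The same-numbered ratio ran from 1.75 to 2.58 in 6 pairs.

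In crypts Hopx was at 77.98 to 180.2 FPKM (median 107.8) after vitamin D and 59.95 to 110.2 FPKM (median 76.8) after vehicle. The groups overlapped, 3 of the 6 vitamin D libraries exceeding all vehicle ones, and the log2 fold change was 0.54 ± 0.23. Within replicate numbers 5 of 6 pairs were higher after vitamin D, by up to 1.65 times, and replicate 4 was at 0.974. Replicates 5 and 6 had the highest Hopx in both treatments: 164.95 and 180.2 FPKM after vitamin D and 110.2 and 109.1 FPKM after vehicle. The same replicates had the highest sums of 20 enterocyte markers, at 21301 and 34056 FPKM after vitamin D and 47282 and 57468 FPKM after vehicle, and their table columns are named in another style. Over the 4 plain-named libraries of each treatment Hopx averaged 97.2 FPKM after vitamin D and 68.8 FPKM after vehicle, with a log2 fold change of 0.49. The part of enterocyte content in the Hopx level was not tested.

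In colon Hopx overlapped widely: 22.2 to 45.2 FPKM after vitamin D and 23.3 to 37.6 FPKM after vehicle, with means of 32.8 ± 8.09 and 32.2 ± 5.08 FPKM. The log2 fold change was 0.01 ± 0.16 (95% interval -0.33 to 0.35, limma adjusted p = 0.994), and its sign turned under 5 of the alternatives tried. The response of villi minus that of colon was 1.02 ± 0.27 on the log2 scale, that of crypts minus colon 0.54 ± 0.28 and that of crypts minus villi -0.48 ± 0.28, given without a test. The Hopx ranges of crypts and villi overlapped in both treatments, and the authors' deposited table for treated mice gives crypts minus villi as -0.23 (adjusted p = 0.375).

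**Figure D2:**
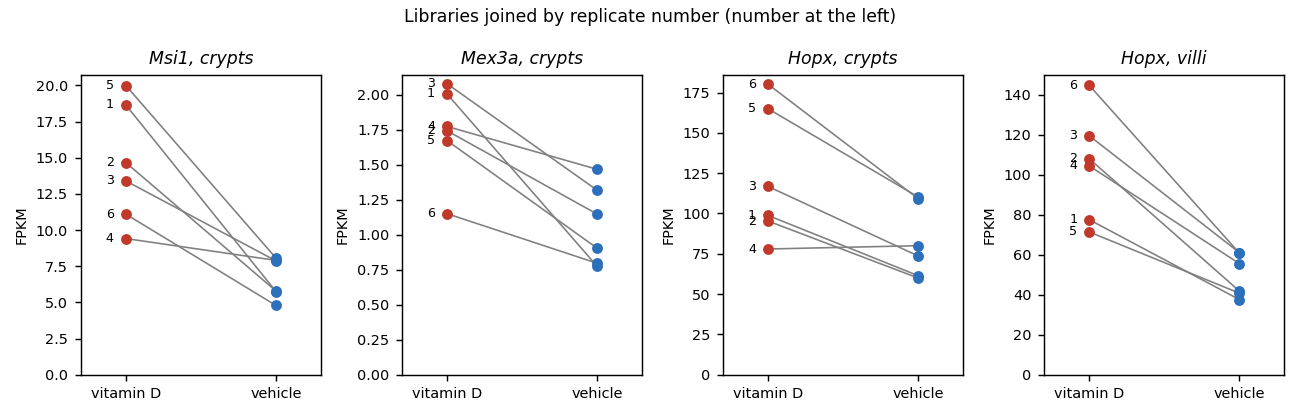
FPKM (vertical axis, linear from 0) of Msi1, Mex3a and Hopx in crypts and of Hopx in villi. Lines join the vitamin D (left) and vehicle (right) libraries of the same replicate number, printed at the left. Only Hopx in crypts has a line that runs upward to vehicle, for replicate 4.

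Bmi1 is a Polycomb subunit that helps silence genes such as the cell cycle inhibitor Cdkn2a. Its spread within groups was the smallest of the 8 genes in villi and crypts, with residual SDs of 0.13 and 0.098 on the log2 scale. In crypts it was at 9.33 to 11.2 FPKM after vitamin D and 8.46 to 10.3 FPKM after vehicle, with 6 of 6 same-numbered pairs higher after vitamin D by 1.01 to 1.17 times. The log2 fold change was 0.10 ± 0.07 (95% interval -0.06 to 0.26, limma adjusted p = 0.553). In villi and colon it was 0.04 ± 0.09 and 0.16 ± 0.15, with limma adjusted p of 0.915 and 0.884. In both treatments the crypt range in FPKM lay wholly above the villus range, with a mean ratio of 2.07 after vitamin D and 1.98 after vehicle. The authors' deposited table for vitamin D libraries gives crypts minus villi as 0.56 on the log2 scale for Bmi1, where 61.9% of genes were called.

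Lrig1, a membrane protein that damps signalling by receptors of the ErbB family, was high in crypts and colon and low on villi. Its crypt mean was 25.9 ± 4.42 FPKM after vitamin D and 21.9 ± 3.64 FPKM after vehicle, and 4 of the 6 vitamin D libraries exceeded all vehicle ones. The log2 fold change was 0.24 ± 0.14 in crypts (95% interval -0.07 to 0.55), 0.22 ± 0.18 in villi and 0.10 ± 0.10 in colon, with limma adjusted p of 0.453, 0.703 and 0.890. Mean Lrig1 in crypts was 5.89 times that in villi after vitamin D and 5.71 times after vehicle. The authors' deposited table for vitamin D libraries gives crypts minus villi as 2.07 on the log2 scale for Lrig1. Crypts and colon overlapped.

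Prom1, the membrane protein CD133, was the most abundant of the 8 genes in colon. It averaged 135.2 ± 38.1 FPKM after vitamin D and 158.4 ± 41.6 FPKM after vehicle there, with a log2 fold change of -0.24 ± 0.20 (95% interval -0.67 to 0.18, limma adjusted p = 0.861). The vitamin D library was lower in 5 of 6 same-numbered pairs. Crypts, at 57.3 ± 12.0 after vitamin D and 51.9 ± 12.9 FPKM after vehicle, and villi, at 12.8 ± 3.09 and 14.2 ± 6.30 FPKM, showed log2 fold changes of 0.15 ± 0.17 and -0.08 ± 0.24, with limma adjusted p of 0.714 and 0.933. The villus sign turned without vehicle replicate 4, the highest at 24.9 FPKM.

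Clu encodes clusterin, a secreted chaperone that marks cells appearing in the regenerating intestine. It stood out by tissue: colon averaged 9.72 ± 3.97 FPKM after vitamin D and 8.50 ± 4.46 FPKM after vehicle. Crypts averaged 0.543 ± 0.367 and 0.914 ± 0.944 FPKM and villi 0.208 ± 0.122 and 0.404 ± 0.372 FPKM, all below the filter. The log2 fold change in colon was 0.24 ± 0.32 (95% interval -0.46 to 0.93, limma adjusted p = 0.905), and it was -0.01 without the 2 vitamin D libraries richest in smooth muscle markers.

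**Figure D3:**
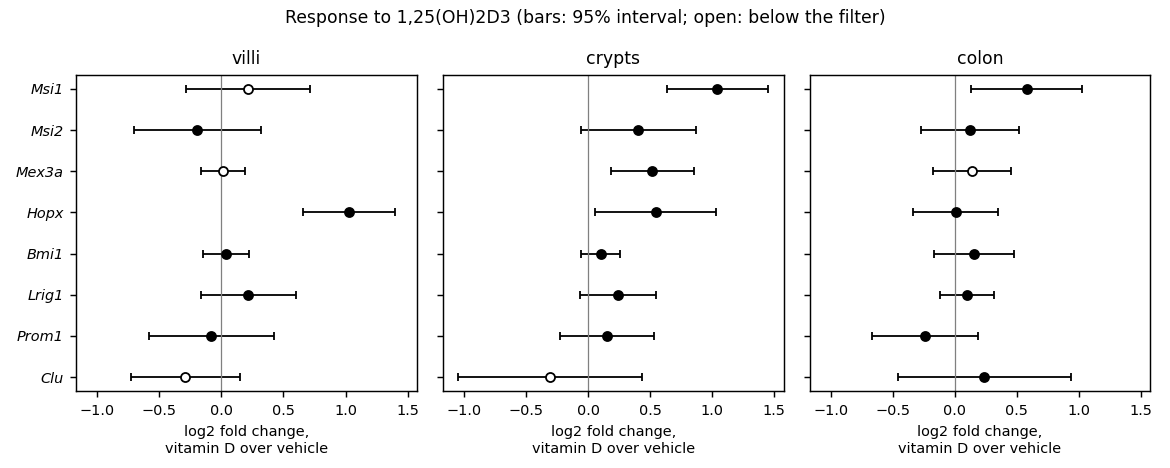
Log2 fold change of vitamin D over vehicle (horizontal axis) for each gene in villi, crypts and colon, with 95% intervals as bars. Open circles are genes below the filter on low values. Msi1 and Hopx were chosen for their rise in villi and crypts, so their intervals there describe the choice and are not a test. Of the other intervals, those of Mex3a in crypts and of Msi1 in colon lie above 0, and neither was called by limma. Both genes were near the filter and left the fit when it was set at 2 FPKM. The interval of Msi1 in villi, below the filter, includes 0.

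Of the genes that could be tested, none was called. In villi that was 0 of 4, with 0 at an unadjusted p under 0.05 in limma, where 2.47% of genes were called and 7.51% were higher at the unadjusted level. In crypts it was 0 of 5, with 1 higher unadjusted, Mex3a, against 8.22% of all genes. In colon it was 0 of 7, with 1 higher unadjusted, Msi1, against 4.17% of all genes. Among these genes the authors' deposited tables called Mex3a in crypts and none in villi, where they called 3.6% of all genes, or in colon. All 7 genes in the crypt fit had a log2 fold change above 0, with a median of 0.40 against -0.01 over all genes tested, but Msi1 and Hopx were among them by choice. Whether the response differed between tissues was tested for Msi2, Lrig1, Bmi1 and Prom1, and 0 were called. Of 9311 genes, 0.0322% were called for crypts minus villi, 0.0644% for crypts minus colon and 0.494% for villi minus colon. The largest was Msi2, at 0.60 ± 0.31 for crypts minus villi (limma adjusted p = 0.728).

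Genes of related lists were set beside these 8. Of 10 other proposed reserve or early progenitor markers, 7 were tested in crypts, and 1 rose and 1 fell. Cd24a, a surface protein sorted on to enrich crypt cells, rose to 440.1 ± 92.3 FPKM after vitamin D, against 230.2 ± 43.7 FPKM after vehicle (log2 fold change 0.93 ± 0.16, limma adjusted p = 0.00906). Cd44, a hyaluronan receptor and Wnt target, fell to 6.99 ± 0.524 FPKM, against 11.2 ± 1.78 FPKM (-0.64 ± 0.10, limma adjusted p = 0.00720). None of 13 genes of the crypt-base stem cell list was called in crypts, with a median of -0.17, and 2 were higher and 1 lower at an unadjusted p under 0.05, against 8.22% and 7.05% of all crypt genes. The lower one, Lgr5, had 2.95 ± 1.27 FPKM after vitamin D and 5.83 ± 1.40 FPKM after vehicle (-0.93 ± 0.24, limma adjusted p = 0.0906). The higher ones were Myc, a transcription factor of proliferating cells, at 27.2 ± 7.49 FPKM after vitamin D and 14.9 ± 4.59 FPKM after vehicle (0.85 ± 0.22, limma adjusted p = 0.0790), and Smoc2 (0.33 ± 0.12, limma adjusted p = 0.229). These 3 were named after their values were seen.

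Of the regeneration list, tied to the YAP programme that Clu also marks, Krt7 was the only called gene in each tissue. It was 1 of 9 tested in villi, 1 of 9 in crypts and 1 of 14 in colon. Over all genes 2.47%, 1.46% and 0.823% were called. The list medians were -0.06, 0.01 and 0.12, with 4, 6 and 10 genes above 0 and 5, 3 and 4 below. Krt7, a keratin of simple epithelia, rose to 138.8 ± 15.99 FPKM in vitamin D crypts, against 47.4 ± 6.21 FPKM in vehicle crypts (1.54 ± 0.10, limma adjusted p = 6.8e-06). Its log2 fold change was 0.81 in villi and 1.21 in colon. Clu was not called. Of the Notch pathway, whose regulator Numb is a target of Musashi proteins, 12 genes were tested in crypts and 0 called by limma, with 1 higher and 0 lower at an unadjusted p under 0.05. Of the Polycomb list 14 were tested in crypts, 0 were called, and 2 were higher and 1 lower unadjusted. Of the ErbB list 10 were tested, 0 were called, and 1 was higher and 3 lower unadjusted, against the same 8.22% and 7.05% of all crypt genes.

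Lists of cell type markers were set beside these values. In bulk RNA their levels do not separate cell number from RNA per cell. In crypts 17 of 18 enterocyte markers had a log2 fold change below 0 (median -0.62, 0 called), with sums of 8968 to 34056 FPKM after vitamin D (median 14683) and 7581 to 57468 FPKM after vehicle (median 23420). All 9 Paneth markers tested were above 0 in crypts (median 0.26, 0 called), and 14 of 16 cell cycle genes were (median 0.22, 0 called). At an unadjusted p under 0.05 in limma, 5 of the 16 cell cycle genes were higher and 0 lower. This compares with 8.22% and 7.05% of all crypt genes. Of the enterocyte markers 0 were higher and 2 lower, and of the Paneth markers 0 and 0. The shifts of these lists run alongside the crypt values of Msi1 and Mex3a, and their part was not tested. Goblet, enteroendocrine and tuft lists had medians of -0.03, -0.01 and 0.01 in crypts with 0 called. Endothelial genes had 1 tested and 0 called. The immune list had 9 tested in crypts, 5 above 0 and 4 below, with a median of 0.01. Of these 1 was called, against 1.46% of all crypt genes. It was Cd79b, a B cell receptor chain, averaging 5.63 FPKM after vitamin D and 0.678 FPKM after vehicle (2.41 ± 0.35, limma adjusted p = 0.00276). In villi and colon Krt7 was the only called gene of these lists outside the 8.

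The 8 genes were also compared in how they moved together between libraries of a group. With the mean of each group subtracted, all 28 pairs were correlated in each tissue, 84 values in all. In villi and crypts the replicate numbers were taken to pair the samples. The permutation test there took all 720 orders of the numbers with both treatments moved together, and in colon 100000 permutations within treatment were drawn. None of the 84 values passed adjustment for r or for rho, so they are given as a description. With 720 orders, the smallest possible p was too large for a pair of villi or crypts to pass on its own. Failing adjustment there therefore does not speak against a shared movement. The closest was Lrig1 with Mex3a in crypts, at r = 0.84 and Spearman rho = 0.83 over 12 libraries (exact permutation p = 0.00139, the smallest that 720 orders can give, and 0.00278; adjusted p = 0.0892 and 0.104). Its r was 0.75 without the 2 libraries farthest from the median of Lrig1. Msi1 and Lrig1 had r = 0.73 in villi, 0.61 in crypts and 0.76 in colon, with adjusted p of 0.117, 0.270 and 0.0892 in the permutation tests. Without the 2 libraries farthest from the median of Msi1, r was 0.39 in villi, 0.72 in crypts and 0.66 in colon. Msi1 was below the filter in villi.

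Prom1 and Mex3a had r = 0.62 in crypts and -0.82 in colon, where rho was -0.81 over 13 libraries (permutation p = 0.00353 and 0.00371, adjusted p = 0.0892 and 0.104). The crypt value was 0.28 without the 2 libraries farthest from the median of Mex3a. Lrig1 and Prom1 had r = 0.62 in crypts and -0.76 in colon (permutation p = 0.00651 in colon, adjusted p = 0.0892), and the crypt value was 0.25 without the 2 libraries farthest from the median of Lrig1. The difference between tissues was not tested. In crypts Hopx and Bmi1 had r = -0.75 and Hopx and Prom1 r = -0.70, with adjusted p of 0.219 and 0.270 in the permutation tests. Libraries of a tissue differed in their summed cell type markers, and the part of this in the correlations was not tested.

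**Figure D4:**
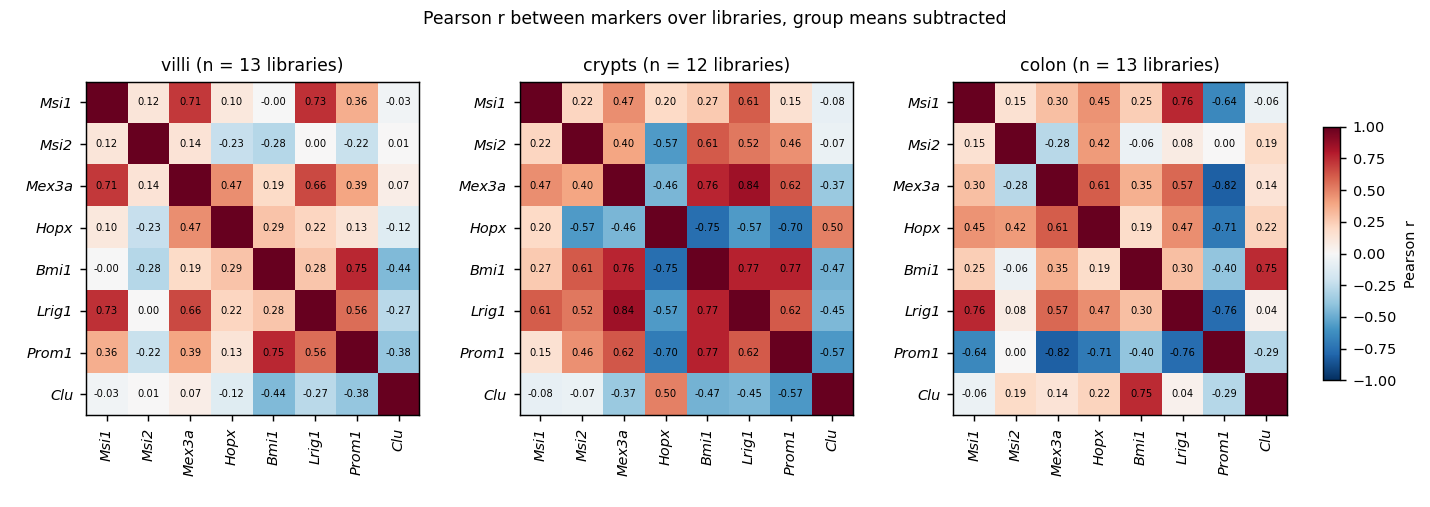
Pearson r between each pair of genes over the libraries of villi, crypts and colon, after subtracting the mean of each group; red is positive and blue negative. The Prom1 row is mostly blue in colon and mostly red in crypts, where Hopx and Clu are the exceptions. None of the 84 values passed adjustment, which no pair of villi or crypts could have passed on its own.

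The genes most like Msi1 over the 38 libraries, with tissue means subtracted, were Prelp (r = 0.84), D10Wsu102e (r = 0.80), Cd24a (r = 0.80), Coq2 (r = 0.79) and Ankrd13b (r = 0.78) among 8721 candidates. Prelp, a matrix proteoglycan, was itself higher after vitamin D, at 125.5 ± 41.2 FPKM in vitamin D crypts and 9.18 ± 3.72 FPKM in vehicle crypts (3.73 ± 0.30, limma adjusted p = 3.0e-05). With group means subtracted, which leaves out the response, the nearest were Sox4 (r = 0.75), Hmgn1 (r = 0.72) and Prelp (r = 0.71). For Hopx the nearest were Cnnm2 (r = 0.78), Hes6 (r = 0.76), Zfp961 (r = 0.76), Det1 (r = 0.75) and Bri3bp (r = 0.73). Of these Cnnm2, Zfp961 and Bri3bp rose in villi and Bri3bp rose in crypts, and none of the 5 was called in colon. Rankings with tissue means subtracted include the vitamin D response for which Msi1 and Hopx were picked. The calls of Prelp and of these genes are therefore not independent of the ranking. With group means subtracted, Acot13 (r = 0.84) and Spag7 (r = 0.80) were among the nearest, and neither was called in any tissue.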

How the data were processed

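RNA-seq tables of villi, crypts and colon were used, with groups taken from the sample titles. Per the file headers, each tissue had 1 deposited table of FPKM, and further deposited tables held the authors' comparisons: a mean level (a signal), a log2 fold change with its error and test score, and p-values. The submitters' processing notes name kallisto 0.45.0, DESeq 1.28.1, DESeq2 and the build mm9, without saying which made which column. Between tissues the authors' fold changes and the FPKM ratios differed by a median of 0.08 to 0.68 on the log2 scale, so tests were made within tissues. Steps between low FPKM values gave the depth, and 77.9% to 91.2% of those below 30 reads came out whole to within 0.05. Every one of 102 pairs of libraries of a group differed by more than sampling noise, with a chi-square of at least 12.0 per degree of freedom.

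Genes reaching 1 FPKM in 6 or more libraries were fitted on log2(FPKM + 0.5) with limma 3.58.1 in R 4.3.3 (trend, no covariate), and p-values were adjusted over all fitted genes (Benjamini and Hochberg), at 0.05. The fit was tested on simulated data. Differences of response were contrasts in 1 fit of 38 libraries. The 8 genes, Cyp24a1, the genes of highest correlation and up to 3 called genes per list are named; Lgr5, Myc and Smoc2 were named after their values were seen. The genes and the 15 lists were chosen with earlier results of these data known. Of 207 list genes, 5 were not analysed here and 1 was found under its earlier symbol. Of the genes of highest correlation, 1 is not reported here. Same-numbered libraries deviated together in villi (r = 0.102 to 0.465) and crypts (r = 0.120 to 0.545), each above 0.1. The title numbers were therefore taken to pair the samples there, and colon did not pass. Libraries of different number were not compared, so this rule cannot show that the numbers pair the samples. In villi the column names put vehicle replicate 6 with vitamin D replicate 7, and that pair also passed (r = 0.197). Alternatives were the pseudocount, the filter, the scaling, the replicate block, name style, sex pattern and leaving out libraries.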

Additional observations from a re-analysis of the deposited data

Results flagged for a closer look

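Of 48 groups of values of the 8 genes, 4 held a library far from the others of its group; chance flags about 1 in 20 groups. Msi1 in villi was highest in vitamin D replicate 1, at 1.37 FPKM, with the next library at 0.736 FPKM. Clu in villi was highest in vehicle replicate 1, at 1.12 FPKM, with the next at 0.439 FPKM. Clu in crypts was highest in vehicle replicate 6, at 2.79 FPKM, with the next at 0.759 FPKM. Bmi1 in colon was lowest in vehicle replicate 5, at 5.19 FPKM, with the next at 8.17 FPKM.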

How the results depend on the processing

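The 240 values of single genes with 1 library left out were kept in 233 cases, and the 280 under other alternatives in 275. For tested genes, kept means the same direction and the same side of the threshold. Msi1 in crypts and Hopx in villi and crypts had no threshold. For them it means the same direction and a shift below the residual SD. Mex3a in crypts passed the test in 2 cases. With the filter at 2 FPKM, Mex3a in crypts, Msi1 in colon and Msi2 in villi left the fit and gave no value. Hopx in villi ranged from 0.94 to 1.11, Hopx in crypts from 0.42 to 0.66, Msi1 in crypts from 0.94 to 1.15 and Msi1 in colon from 0.43 to 0.73. The sign turned for Hopx in colon by the block on column names (-0.052), with sex pattern as a covariate (-0.011) and without vitamin D replicate 3 (-0.073), vitamin D replicate 5 (-0.052) or vehicle replicate 6 (-0.080; with 1 library left out the range was -0.080 to 0.095). It turned for Prom1 in villi in plain-named libraries (0.18) and without vehicle replicate 4 (0.097; with 1 library left out the range was -0.19 to 0.097) or 5 (0.0067), for Bmi1 in villi without vehicle replicate 3 (-0.00087; with 1 library left out the range was -0.00087 to 0.071), and for Clu in colon without vitamin D replicates 1 and 2 (-0.0084).

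Called genes numbered 240 in villi, 157 in crypts and 95 in colon. With the replicate block they numbered 341 in villi, 444 in crypts (also by column names) and 147 in colon, where the numbers were not taken to pair. The block changed no call of the 8 genes where they were tested. Plain-named libraries gave 97 in villi and 84 in crypts; name style and sex pattern as covariates gave 391 and 272 in crypts. With 1 library left out the counts were 176 to 223 in villi, 107 to 1065 in crypts (1065 without vehicle replicate 4) and 66 to 141 in colon. Without the colon libraries richest in muscle markers, left out after seeing the data, 58 remained. With no filter on low values, the response to vitamin D differed between crypts and villi for 12 genes, against 3, and between crypts and colon for 26, against 6. The cause of these shifts was not tested. Of 48 correlations of like genes, 31 moved little and 17 moved further. Msi1, Mex3a and Clu had too low a level in villi to enter the fit.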
